A study of Mus musculus with 12 samples.

Results

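Epididymal lipocalins are small secreted proteins that carry hydrophobic molecules, and 8 genes of the family (Lcn2, Lcn5, Lcn6, Lcn8, Lcn9, Lcn10, Lcn12 and Ptgds) were followed across the corpus and cauda epididymidis of control and Dicer1 cKO mice. They were taken by gene symbol from the annotation of the array and not by a filter on their values. The choice was made with earlier results of these data known. Each of the 8 genes had 1 probe-set of its own, out of 22180 genes with such a probe-set. Messenger RNA had been measured on 12 whole transcript arrays, 3 for each of the 4 groups (corpus control, corpus cKO, cauda control and cauda cKO). The study asked whether loss of the miRNA-processing enzyme Dicer1 in the proximal epididymis affects gene expression further downstream. Control mice were Dicer1fl/fl, and cKO mice were Defb41iCre/wt;Dicer1fl/fl, so that both genotypes carried the floxed Dicer1 alleles and only the cKO carried Cre. All mice were of a mixed C57Bl/6N and SV129 background. The Defb41 promoter drives Cre in principal cells of the proximal epididymis (initial segment and caput), upstream of both regions measured here. Both regions were taken from the same 6 mice, 3 of each genotype, with the paired tissues of a region pooled for each mouse. Which corpus array and which cauda array belong to one mouse is not given, so tests between regions and of the interaction treat arrays as independent although animals are shared. The age of the mice at sampling is not given in the sources used here.

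The lipocalin fold is a barrel with a central cavity that holds a small ligand, such as a retinoid, a steroid, a prostaglandin or an iron-carrying siderophore. In the epididymis, principal cells secrete lipocalins into the lumen, where they meet maturing sperm. Lcn5, Lcn6, Lcn8, Lcn9 and Lcn10 are known as genes of the proximal epididymis, and Lcn12 and Ptgds as further secreted members of the family. Lcn2 differs from them, since it binds bacterial siderophores, is stored in neutrophil granules and is induced in epithelia by NF-kB signalling during inflammation.

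The values are log2 intensities, so that a difference of 1 is a 2-fold difference, and array medians over all probe-sets lay between 5.19 and 5.31. Dicer1 itself lay between 7.37 and 7.65 in the control corpus, 7.41 and 7.61 in the cKO corpus, 7.51 and 7.64 in the control cauda and 7.71 and 7.77 in the cKO cauda, where all cKO arrays were above all controls. Because Cre acts outside the corpus and cauda, this level checks no genotype label. The regions could be told apart by smooth muscle markers, of which 8 of 8 were higher in the control cauda and 6 of 8 in the cKO cauda at an adjusted p under 0.05 (limma). The same was true of 1.77% and 1.64% of all probe-sets. Some arrays stood apart. Markers of the initial segment and caput were low on the replicate 3 arrays of both cauda groups. Corpus cKO replicate 3 differed from replicates 1 and 2, which had lower clear cell markers and higher macrophage markers. With 3 arrays a group, precision is limited by their number, and an exact permutation test of 3 arrays against 3 cannot go below p = 0.1.

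All 8 genes lie on chromosome 2 in the RefSeq annotation of GRCm38.p6. Ptgds and Lcn12 are neighbours on the minus strand. Beyond them come C8g, a complement component of the lipocalin family, 10 other protein-coding genes and Lcn15, and then Lcn8, Lcn5, Lcn6 and Lcn10 follow one another without interruption on the plus strand. Lcn9 lies a few genes further on, beyond the odorant-binding genes Obp2a and Obp2b and the lipocalins Lcn3 and Lcn11. Lcn2 is far from the cluster, with 110 protein-coding genes between it and Lcn4, the nearest lipocalin. The 250 bases before the start of transcription are shown for Lcn8 and Lcn9, whose levels followed each other most closely, for Lcn12 and Ptgds, which were bright in the cauda, and for Lcn2, the immune member. They are RefSeq promoter sequences of GRCm38.p6, given in the direction of transcription, and capitals mark matches to the motifs listed after them.
Lcn8 (chr2:25652868-25653117, plus strand): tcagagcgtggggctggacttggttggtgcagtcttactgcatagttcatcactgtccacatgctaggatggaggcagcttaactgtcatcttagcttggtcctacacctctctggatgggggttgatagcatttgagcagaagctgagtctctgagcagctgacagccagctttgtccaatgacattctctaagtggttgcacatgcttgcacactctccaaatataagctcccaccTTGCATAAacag
Lcn9 (chr2:25822903-25823152, plus strand): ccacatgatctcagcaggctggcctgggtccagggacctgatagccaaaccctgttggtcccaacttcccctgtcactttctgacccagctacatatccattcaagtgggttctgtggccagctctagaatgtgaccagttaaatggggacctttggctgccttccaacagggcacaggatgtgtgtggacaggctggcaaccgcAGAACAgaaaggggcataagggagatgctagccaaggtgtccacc
Lcn12 (chr2:25493912-25494161, minus strand): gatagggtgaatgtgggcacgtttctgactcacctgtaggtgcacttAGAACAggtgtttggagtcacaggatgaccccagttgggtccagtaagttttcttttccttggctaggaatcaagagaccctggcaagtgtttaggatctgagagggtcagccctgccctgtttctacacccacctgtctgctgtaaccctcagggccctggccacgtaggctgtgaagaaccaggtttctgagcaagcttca
Ptgds (chr2:25469750-25469999, minus strand): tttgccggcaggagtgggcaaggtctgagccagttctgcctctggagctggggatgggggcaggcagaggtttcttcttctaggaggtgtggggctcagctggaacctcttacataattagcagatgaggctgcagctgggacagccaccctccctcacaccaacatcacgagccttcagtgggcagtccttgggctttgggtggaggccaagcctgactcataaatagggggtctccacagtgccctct
Lcn2 (chr2:32387740-32387989, minus strand): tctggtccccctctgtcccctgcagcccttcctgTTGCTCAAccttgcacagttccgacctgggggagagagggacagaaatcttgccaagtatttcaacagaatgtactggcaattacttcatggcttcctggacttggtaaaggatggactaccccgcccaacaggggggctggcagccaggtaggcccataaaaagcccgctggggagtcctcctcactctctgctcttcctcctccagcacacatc

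A total of 5 motifs were searched on both strands in these 250 bases. The androgen receptor half-site TGTTCT, whose complement reads AGAACA, occurred in 4 of the 8 lipocalin promoters (Lcn6, Lcn9, Lcn10 and Lcn12) and in 16.1% of 32851 promoters. In Lcn9 it lay 45 to 40 bases before the start, and in Lcn12 203 to 198 bases before it. The C/EBP site TTGCNNAA occurred in 2 of 8 (Lcn2 and Lcn8) and in 9.6% of all promoters. The TATA box TATAAA was found in Lcn5 only, 28 to 23 bases before the start, and in 12.4% of all promoters. The forkhead core TGTTTNC was found in Lcn6 only and in 17.8% of all promoters. The NF-kB site (GGG, any 2 bases, then TTTCC) was in 0 of 8 and in 1.4% of all promoters. The motifs do not overlap one another in these promoters, and the Ptgds sequence holds none of them. A match shows the letters only and no binding was measured.

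**Figure D1:**
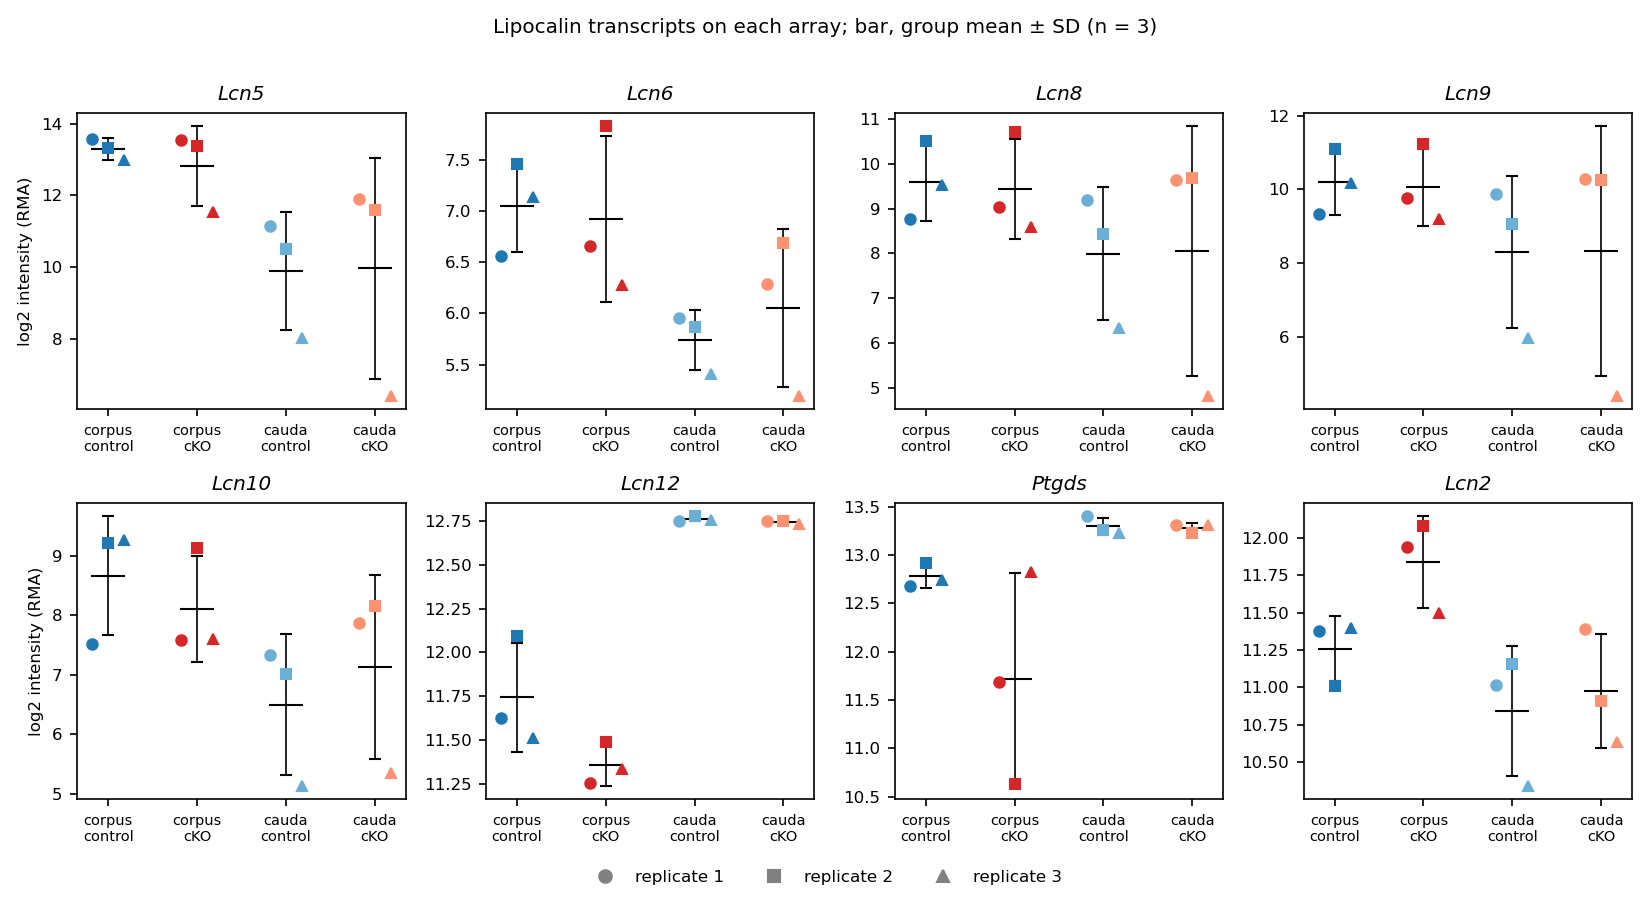
Log2 intensity of each lipocalin on each of the 12 arrays, with 1 panel per gene and the 4 groups on the horizontal axis. Points are arrays, with the shape giving the replicate number, and bars are the group mean and SD (n = 3). Lcn5, Lcn8, Lcn9 and Lcn10 are low on both replicate 3 arrays of the cauda, whereas the 6 cauda values of Lcn12 lie within 0.0415.

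Regional levels were first compared in control mice, and Lcn12 was the only lipocalin that passed the adjusted threshold. Lcn12 was 2.02-fold higher in the cauda than in the corpus. In the control corpus its log2 intensity was 11.63, 12.10 and 11.51 on replicates 1, 2 and 3 (11.74 ± 0.31, SD, n = 3). In the control cauda it was 12.75, 12.78 and 12.76 (12.76 ± 0.0128, SD, n = 3). Every cauda array was above every corpus array. The log2 fold change was 1.02 (standard error 0.15, 95% interval 0.69 to 1.35, adjusted p = 0.00413 from limma). Of all probe-sets, 1.77% were called higher in the control cauda and 3.52% were called in either direction. The other 7 lipocalins did not pass, and 6 of the 8 members had a negative difference, with a median of -1.46 over the 8 members against -0.03 over all genes.

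Lcn5 encodes the epididymal retinoic acid-binding protein. Its log2 intensity in the control corpus was 13.57, 13.32 and 12.98 (13.29 ± 0.30, SD, n = 3). In the control cauda it was 11.13, 10.49 and 8.02 (9.88 ± 1.64, SD, n = 3). All cauda arrays lay below all corpus arrays, with replicate 3 the lowest by far. The difference was -3.41 on the log2 scale (standard error 1.27, 95% interval -6.20 to -0.61), which is 10.6-fold, but it did not pass the adjusted threshold (adjusted p = 0.212 from limma). Without cauda cKO replicate 3, which belongs to neither group compared but enters the common variance, the adjusted p for Lcn5 was 0.0374 (limma), and over all alternatives it ranged from 0.0374 to 0.46. In the cKO corpus Lcn5 measured 13.54, 13.37 and 11.54 (12.81 ± 1.11, SD, n = 3). In the cKO cauda it measured 11.89, 11.58 and 6.42 (9.96 ± 3.07, SD, n = 3). Here corpus and cauda overlapped, because corpus replicate 3 lay below cauda replicates 1 and 2. The cKO difference between regions was -2.85 (standard error 1.27, adjusted p = 0.375 from limma).

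Lcn6 and Lcn10 lie next to each other in the cluster. Lcn6 measured 6.56, 7.45 and 7.13 in the corpus of controls and 5.95, 5.86 and 5.40 in their cauda. The groups did not overlap, and the log2 difference was -1.31 (standard error 0.44, adjusted p = 0.157 from limma). In cKO mice Lcn6 measured 6.66, 7.82 and 6.27 in the corpus and 6.28, 6.69 and 5.20 in the cauda, so that the regions overlapped. Lcn10 measured 7.51, 9.21 and 9.26 in the corpus of controls and 7.34, 7.01 and 5.13 in their cauda. These groups were also apart, with a log2 difference of -2.17 (standard error 0.82, adjusted p = 0.221 from limma). Lcn10 of cKO mice measured 7.58, 9.12 and 7.60 in the corpus and 7.87, 8.16 and 5.35 in the cauda, again with overlap. The lowest Lcn10 value, on control cauda replicate 3, was below the median of its own array.

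Lcn8 and Lcn9 are epididymal members with nearly the same profile on these arrays. Lcn8 measured 8.76, 10.51 and 9.54 in the corpus of controls and 9.19, 8.44 and 6.33 in their cauda. In cKO mice Lcn8 measured 9.03, 10.71 and 8.58 in the corpus and 9.63, 9.68 and 4.82 in the cauda. Corpus and cauda overlapped in both genotypes, and cKO cauda replicate 3 was below the median of its array. Lcn9 measured 9.33, 11.09 and 10.16 in the corpus of controls and 9.88, 9.05 and 5.98 in their cauda. In cKO mice Lcn9 measured 9.77, 11.22 and 9.18 in the corpus and 10.28, 10.26 and 4.41 in the cauda. The overlap and the low replicate 3 were the same as for Lcn8. The regional difference in controls was -1.62 for Lcn8 (standard error 1.20, adjusted p = 0.58 from limma). For Lcn9 it was -1.89 (standard error 1.45, adjusted p = 0.595 from limma). Within the 6 corpus arrays Pearson's r between Lcn8 and Lcn9 was 0.997, and within the 6 cauda arrays it was 0.998, values that rest on 6 points sharing the same arrays and tissue pieces.

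In control mice 3 lipocalins (Lcn5, Lcn6 and Lcn10) lay wholly below the corpus in the cauda, against 11.8% of all probe-sets, and 2 (Lcn12 and Ptgds) lay wholly above it, against 10.2%. In cKO mice the number wholly below was 1 (Lcn2) against 8.45% of all probe-sets, and 2 (Lcn12 and Ptgds) were again wholly above, against 9.75%. For all 5 proximal genes both cauda means lay below both corpus means, whereas for Lcn12 and Ptgds both lay above them. Without both cauda replicate 3 arrays, the regional difference in cKO mice turned positive for Lcn8 and Lcn9, to 0.22 for each gene on the log2 scale.

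The level of the 5 proximal lipocalins moved with markers of the initial segment and caput. Of 21 such genes listed without lipocalins, 18 were measured, and 1 of them (Cst13) was below the lowest array median in all groups. Their mean log2 intensity was 8.63, 9.49 and 9.25 on control corpus replicates 1, 2 and 3 and 8.79, 9.66 and 8.28 on those of the cKO corpus. In the cauda it was 8.07, 7.77 and 6.05 in controls and 8.50, 8.47 and 5.92 in cKO mice. The summed log2 level ranged from 155.4 to 170.8 in the control corpus, 149.1 to 173.9 in the cKO corpus, 108.9 to 145.2 in the control cauda and 106.6 to 152.9 in the cKO cauda. The replicate 3 arrays of the cauda were thus the lowest for the markers as well. In control mice 16 of 18 markers had a negative cauda difference and 2 were called lower, against 3.52% of all probe-sets called in either direction. The 2 were the serine protease inhibitor Spint5 at -5.71 and the RNase A family gene Rnase12 at -0.73 (adjusted p = 0.0208 and 0.0342 from limma). In cKO mice 15 of 18 had a negative difference and 0 were called at the adjusted threshold (limma), while 3 had an unadjusted p under 0.05. Some listed markers were bright and even in the corpus itself. Control corpus means (SD, n = 3) were 12.13 ± 0.0452 for Spint5 and 13.13 ± 0.0546 for Spint4. They were 11.27 ± 0.0882 for Rnase12 and 13.06 ± 0.0932 for Adam7, whose control cauda mean was 12.95. Others varied more between control corpus arrays, such as Cst11 (9.27 ± 1.12). These arrays hold no caput, and whether the marker mean follows proximal tissue was not tested.

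Within the 6 cauda arrays, r with the marker mean was 0.979 for Lcn5, 0.927 for Lcn6, 0.978 for Lcn8, 0.984 for Lcn9 and 0.99 for Lcn10. Within the 6 corpus arrays it was 0.541 for Lcn5, 0.986 for Lcn6, 0.963 for Lcn8, 0.967 for Lcn9 and 0.902 for Lcn10. Without the 2 arrays whose marker mean was farthest from its median, r for Lcn5 in the corpus was -0.697 over 4 arrays, while for the other 4 genes it was 0.955 to 0.995. These are descriptions over arrays that share tissue and dissection. The part of proximal tissue in the regional differences was not tested, and in whole tissue fewer cells of a type and less RNA per cell cannot be told apart.

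**Figure D2:**
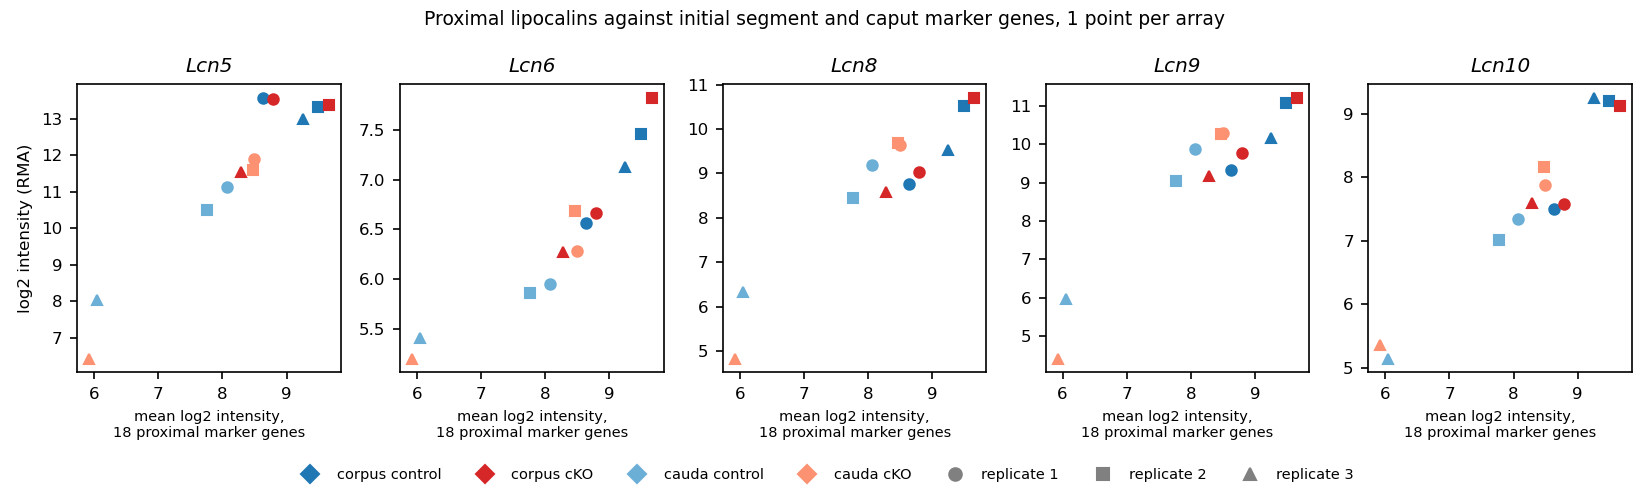
Log2 intensity of the 5 proximal lipocalins (vertical axes) against the mean log2 intensity of 18 initial segment and caput markers (horizontal axes), 1 point per array and colours for the 4 groups. In the cauda the replicate 3 arrays lie lowest on both axes, with marker means of 6.05 and 5.92.

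Compared with these genes, Lcn12 hardly varied within the cauda. In the cKO corpus Lcn12 measured 11.25, 11.49 and 11.34 (11.36 ± 0.118, SD, n = 3), and in the cKO cauda it measured 12.75, 12.75 and 12.74 (12.75 ± 0.00884, SD, n = 3). The regions were apart, and Lcn12 was 2.61-fold higher in the cKO cauda. The log2 fold change was 1.39 (standard error 0.15, 95% interval 1.05 to 1.72, adjusted p = 0.000617 from limma). Of all probe-sets, 1.64% were called higher in this comparison and 2.69% in either direction. Lcn12 kept its call in both genotypes under each alternative run, with adjusted p from 0.00121 to 0.0358 in controls and from 0.000145 to 0.00861 in cKO mice (limma). The order of its group means was cKO corpus, control corpus, then both cauda groups, which differed by 0.02.

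Ptgds encodes lipocalin-type prostaglandin D synthase, which makes prostaglandin D2 and also carries retinoids. Its log2 intensity was 12.68, 12.92 and 12.74 in the control corpus (12.78 ± 0.124, SD, n = 3) and 13.40, 13.26 and 13.23 in the control cauda (13.30 ± 0.0887, SD, n = 3). In cKO mice it was 11.68, 10.63 and 12.82 in the corpus (11.71 ± 1.10, SD, n = 3) and 13.31, 13.23 and 13.31 in the cauda (13.28 ± 0.0448, SD, n = 3). Every cauda array was above every corpus array in both genotypes, and the cKO corpus held both low values. The regional log2 difference was 0.52 in controls (standard error 0.40, adjusted p = 0.591 from limma). That standard error takes in the scattered cKO corpus (SD 1.10), which is in neither control group. Over all alternatives the adjusted p in controls ranged from 0.124 to 0.746 (limma). In cKO mice the regional difference was 1.57 (standard error 0.40, 95% interval 0.70 to 2.44, adjusted p = 0.0665 from limma), which missed the threshold. Refitted on probe-sets with 1 symbol only, it passed (adjusted p = 0.0279 from limma). It also passed when refitted on the brighter part of the probe-sets, above the median of their means (adjusted p = 0.0316 from limma). Without corpus cKO replicate 3 it passed as well (adjusted p = 0.0012 from limma). Over all alternatives the adjusted p in cKO mice ranged from 0.0012 to 0.26 (limma).

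For cKO against control in the corpus, 0 of the 8 lipocalins passed the adjusted threshold, as did 0% of all probe-sets (limma). At an unadjusted p under 0.05, 1 member (Lcn2) had a positive and 2 (Ptgds and Lcn12) a negative difference, against 4.26% and 4.09% of all probe-sets and 8.35% in either direction. With each probe-set's own variance 2 members (Ptgds and Lcn12) had such a p, against 8.04%. The difference for Ptgds was -1.07 (standard error 0.40, 95% interval -1.93 to -0.20, adjusted p = 0.484 from limma). This interval uses the spread pooled with the even cauda groups (SD 0.0887 and 0.0448), while the SD in the cKO corpus was 1.10. An exact permutation test of the corpus arrays alone gave p = 0.3. Replicates 1 and 2 of the cKO corpus lay below all control arrays, while replicate 3 lay within the control range. Without that replicate the difference was -1.62 with an adjusted p of 0.0104 (limma, range over alternatives 0.0104 to 0.837), in a fit in which 861 probe-sets passed. For Lcn12 the difference was -0.39 (standard error 0.15, 95% interval -0.72 to -0.05, adjusted p = 0.508 from limma), and all cKO arrays lay below all control arrays, as 5.99% of all probe-sets did.

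The proximal lipocalins showed no called difference between genotypes in the corpus. The log2 difference was -0.48 for Lcn5 (95% interval -3.27 to 2.31), -0.13 for Lcn6 (-1.09 to 0.83), -0.17 for Lcn8 (-2.80 to 2.47), -0.14 for Lcn9 (-3.32 to 3.05) and -0.56 for Lcn10 (-2.36 to 1.25). Control and cKO arrays overlapped for each of them. The median over the 8 members was -0.28, against -0.03 over all genes.

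In the cauda, 0 of the 8 lipocalins differed between cKO and control at the adjusted threshold, with 0% of all probe-sets called, and 0 did at an unadjusted p under 0.05, against 5.66% of all probe-sets (limma). The log2 differences lay between -0.02 for Lcn12 and 0.64 for Lcn10, with a median of 0.07 over the 8 members and 0.03 over all genes. The width of their intervals differed widely between genes. The 95% interval was -3.17 to 3.20 for Lcn9 and -2.71 to 2.87 for Lcn5, both with the low replicate 3. It was -0.35 to 0.32 for Lcn12 and -0.88 to 0.85 for Ptgds. These intervals use a spread pooled over all 4 groups, the corpus included. In the cauda alone the SD of Ptgds was 0.0887 in controls and 0.0448 in cKO mice. That of Lcn12 was 0.0128 and 0.00884. Lcn12 was the only lipocalin with no overlap between genotypes in the cauda, its cKO arrays all lying below the controls as for 5.65% of all probe-sets, but the group means were only 0.02 apart.

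The genotype effect was also compared between the regions in an interaction test. Of the 8 members 0 passed the adjusted threshold and 0 had an unadjusted p under 0.05, against 0% and 6.5% of all probe-sets (limma). The effect in the corpus minus that in the cauda was -1.05 for Ptgds (95% interval -2.28 to 0.18, adjusted p = 0.808 from limma), -0.37 for Lcn12 (-0.84 to 0.10, adjusted p = 0.833) and 0.44 for Lcn2 (-0.36 to 1.24, adjusted p = 0.884). The comparisons of genotypes and of regions share arrays, so that a low corpus cKO array enters the genotype difference, the regional difference and this interaction.

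**Figure D3:**
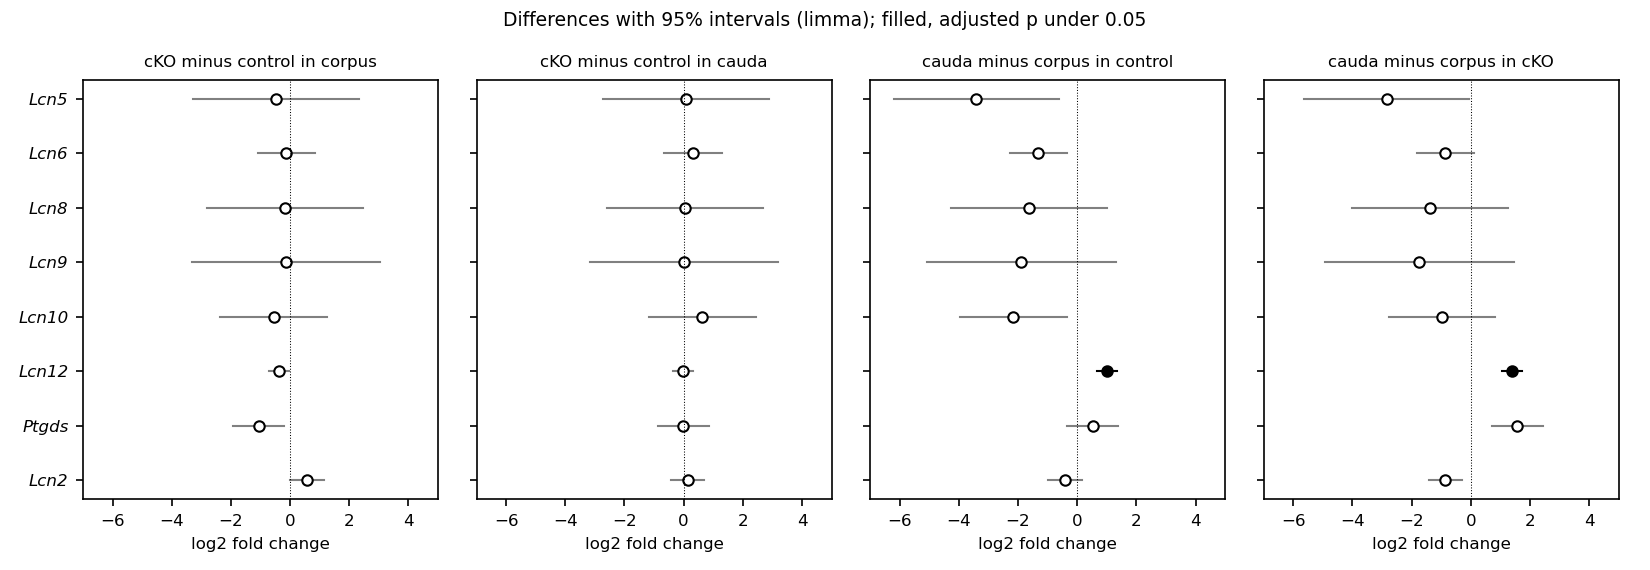
Log2 fold change of each lipocalin (rows) with its 95% interval from limma in the 4 comparisons, cKO minus control in corpus and cauda and cauda minus corpus in control and cKO. Filled points have an adjusted p under 0.05. Only Lcn12 is filled, at 1.02 in control and 1.39 in cKO mice, and the intervals of Lcn5, Lcn8 and Lcn9 are the widest.

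The low Ptgds values of cKO corpus replicates 1 and 2 went together with low markers of clear cells, the acidifying cells of the epididymal epithelium. All 6 markers listed were measured, and Slc4a9 was below the lowest array median in all groups. Their mean log2 intensity was 8.28, 8.27 and 8.28 in the control corpus and 7.61, 7.38 and 8.41 in the cKO corpus. The summed log2 level was 49.6 to 49.7 in the control corpus, 44.3 to 50.5 in the cKO corpus, 51.0 to 51.9 in the control cauda and 50.0 to 50.4 in the cKO cauda. All 6 markers had a negative difference in the cKO corpus, 3 at an unadjusted p under 0.05, against 4.09% of all probe-sets, and 0 at the adjusted threshold (limma). Over the 6 corpus arrays r between Ptgds and the marker mean was 0.969, and it was 0.108 over the 4 arrays left without the 2 farthest. In the cauda it was 0.283, and -0.859 over 4. All 6 markers had a negative difference in the cKO cauda too, 0 at an unadjusted p under 0.05 (limma), where Ptgds differed by -0.01. Smooth muscle markers, 8 of 8 measured and none below the lowest array median, also moved with Ptgds in the corpus, in the opposite direction. Their mean was 9.65, 9.64 and 9.16 in the control corpus and 9.99, 10.45 and 9.75 in the cKO corpus, and their summed log2 level was 73.2 to 77.2 and 78.0 to 83.6, against 90.3 to 92.7 in the control cauda and 91.0 to 93.9 in the cKO cauda. All 8 had a positive difference in the cKO corpus, 5 at an unadjusted p under 0.05, against 4.26% of all probe-sets, and 0 at the adjusted threshold (limma). Over the 6 corpus arrays r with Ptgds was -0.86, and over the 4 arrays left without the 2 farthest it was -0.934. In the cauda it was -0.0986, and -0.432 over 4. The part of clear cells or smooth muscle in the Ptgds values was not tested.

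**Figure D4:**
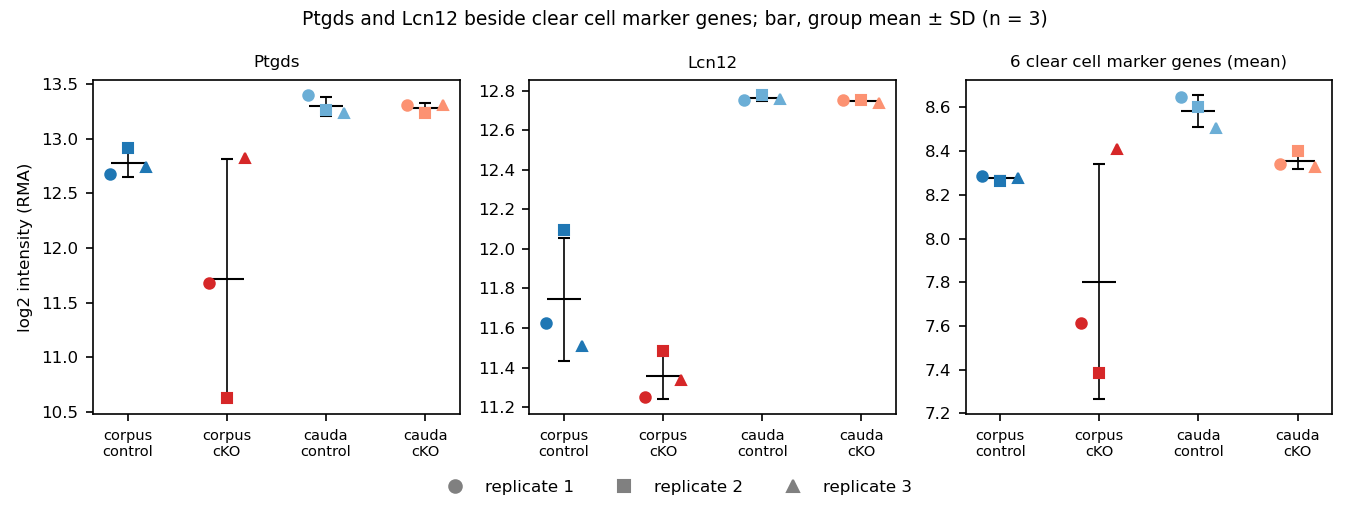
Log2 intensity of Ptgds, of Lcn12 and of the mean of 6 clear cell markers on each array, by group, with the mean and SD (n = 3) as bars. The 2 low Ptgds arrays of the cKO corpus (11.68 and 10.63) also have the lowest clear cell means (7.61 and 7.38), while Lcn12 in the cKO corpus spans only 11.25 to 11.49.

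Prostaglandin D2 and E2 genes were described beside Ptgds, and 17 of the 21 genes listed were measured. Of these, 5 were called higher and 1 lower in the control cauda, against 1.77% of all probe-sets called higher and 3.52% in either direction, with a median of 0.09 against -0.03 over all genes. Ptgs2, the inducible cyclooxygenase that makes the substrate of Ptgds, was 2.67 higher on the log2 scale (standard error 0.31, adjusted p = 0.000888 from limma). The gene Pla2g4a, for the phospholipase that releases arachidonic acid, was 1.23 higher, the prostaglandin transporter Slco2a1 was 1.73 higher and the degrading enzyme Hpgd was 0.85 higher (adjusted p = 0.000413, 0.00329 and 0.0192 from limma). In the cKO the same 4 genes were called higher in the cauda, with values of 1.41, 1.22, 1.88 and 1.55 in that order. In that comparison 1.64% of all probe-sets were called higher and 2.69% in either direction. Akr1c18, a hydroxysteroid dehydrogenase, was called lower in both genotypes, at -1.44 and -1.65. In the cKO corpus 6 of 17 had a positive difference at an unadjusted p under 0.05, against 4.26% of all probe-sets, and 0 passed the adjusted threshold (limma), with Ptgs2 at 1.43 (adjusted p = 0.288).

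For retinoid transport and synthesis, the ligand pathway of Lcn5, 22 of 23 genes were measured. In the control cauda 6 were called higher and 1 lower than in the corpus, against the same 3.52% of all probe-sets. Examples were the alcohol dehydrogenase Adh1 at 1.06, the retinol esterifying enzyme Lrat at 1.12, the receptor Rarg at 0.84 and the retinoic acid-degrading enzyme Cyp26a1 at -1.10 (adjusted p = 0.00185, 0.00754, 0.0169 and 0.0314 from limma). In the cKO cauda 4 were called higher and 0 lower (limma), against 1.64% of all probe-sets called higher and 2.69% in either direction. Among the 4 were Adh1 at 0.90 and the retinoic acid-binding protein Crabp2 at 1.39. For cKO against control in the corpus 0 of 22 passed the adjusted threshold and 6 had an unadjusted p under 0.05, 5 with a positive difference, against 8.35% of all probe-sets. Of 10 androgen and forkhead regulators listed, 7 were measured, and Esr1 was the only one called, at 1.02 in the cKO cauda against the cKO corpus (adjusted p = 0.032 from limma). Between these groups 2.69% of all probe-sets were called.

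Lcn2, the immune member, shared part of the regional profile of the proximal genes, since both of its cauda means also lay below both corpus means. Its log2 intensity was 11.37, 11.01 and 11.39 in the control corpus (11.26 ± 0.216, SD, n = 3) and 11.94, 12.08 and 11.49 in the cKO corpus (11.84 ± 0.306, SD, n = 3). In the cauda it was 11.02, 11.16 and 10.34 in controls (10.84 ± 0.437, SD, n = 3) and 11.39, 10.91 and 10.64 in cKO mice (10.98 ± 0.381, SD, n = 3). All cKO corpus arrays lay above all control corpus arrays, replicate 3 only just, and 5.85% of all probe-sets did the same. The difference was 0.58 (standard error 0.26, 95% interval 0.01 to 1.15, adjusted p = 0.588 from limma), a 1.49-fold difference that did not pass. In the cauda the genotypes overlapped and differed by 0.14 (95% interval -0.43 to 0.70). Between regions Lcn2 differed by -0.42 in controls, with overlap (adjusted p = 0.485 from limma), and by -0.86 in cKO mice, with no overlap (adjusted p = 0.13). The group means ran from control cauda through cKO cauda and control corpus to cKO corpus, and the genotype pairs at either end of this order did not differ at the adjusted threshold. The middle pair, cKO cauda and control corpus, was not tested. Lcn2 was also lowest on replicate 3 of both cauda groups, by 0.75 and 0.51 below the mean of replicates 1 and 2. Over the 12 arrays r between Lcn2 and the 5 proximal genes was 0.635 to 0.764, and within the 6 cauda arrays it was 0.632 to 0.818, against -0.173 to 0.14 within the 6 corpus arrays. With the initial segment and caput markers r was 0.843 in the cauda (0.0823 over the 4 arrays left without the 2 farthest) and 0.0653 in the corpus (-0.657 over 4).

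Other acute phase and NF-kB target genes were described beside Lcn2. Of 28 listed, 26 were measured, and 6 of these (Saa2, Il6, Cxcl1, Cxcl2, Cxcl5 and Ccl20) were below the lowest array median in all groups. Their mean log2 intensity was 6.24, 6.00 and 5.99 in the control corpus and 7.07, 6.41 and 6.20 in the cKO corpus. In the cKO corpus 21 of 26 had a positive difference, 11 at an unadjusted p under 0.05, against 4.26% of all probe-sets, and 0 at the adjusted threshold (limma), with a median of 0.44 against -0.03 over all genes. Values were 0.86 for the cytokine signalling inhibitor Socs3, 0.96 for Lrg1, 1.00 for Serpina3n and 2.08 for the metalloproteinase inhibitor Timp1 (adjusted p = 0.308, 0.326, 0.33 and 0.371 from limma). In cKO mice 1 gene of the list was called between the regions, against 2.69% of all probe-sets. It was Lrg1, at -1.32 in the cauda (adjusted p = 0.0127 from limma). Over the 6 corpus arrays r between Lcn2 and the list mean was 0.738, and over the 6 cauda arrays it was 0.244. Without the 2 farthest arrays the values were 0.957 and -0.263 over 4 arrays each.

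The group mean of the macrophage markers was also highest in the cKO corpus, at 8.45 against 8.05 in the cKO cauda. In controls the direction was opposite to that of Lcn2. There all 10 markers were higher in the cauda, with a mean of 7.87 against 7.51, while Lcn2 differed by -0.42. Only replicate 1 of the cKO corpus lay above every cauda array, the highest of which was 8.21. Csf1r and Mrc1 had slightly higher means in the cKO cauda than in the cKO corpus. All 10 were measured and none was below the lowest array median, and their mean was 7.79, 7.31 and 7.42 in the control corpus and 9.29, 8.18 and 7.89 in the cKO corpus. Their summed log2 level was 73.1 to 77.9 in the control corpus, 78.9 to 92.9 in the cKO corpus, 77.1 to 80.0 in the control cauda and 78.2 to 82.1 in the cKO cauda. All 10 had a positive difference in the cKO corpus, 8 at an unadjusted p under 0.05, against 4.26% of all probe-sets, and 0 at the adjusted threshold (limma), with a median of 0.96. Over the 6 corpus arrays r between Lcn2 and the marker mean was 0.781, and it was 0.811 over the 4 arrays left without the 2 farthest. In the cauda it was 0.428, and 0.996 over 4. The part of macrophages in the Lcn2 values was not tested. Smooth muscle markers moved with Lcn2 in the corpus as well, with r of 0.749 over the 6 arrays and 0.931 over 4. Over the same 6 arrays r was larger in size with lists outside immunity. It was 0.885 with the prostaglandin D2 and E2 genes (0.376 over 4) and -0.869 with clear cell markers (0.642 over 4). With Ptgds itself it was -0.901. The part of any of these in the Lcn2 values was not tested either.

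Neutrophils store Lcn2 protein, and of their 11 markers 8 (S100a9, Ngp, Camp, Elane, Mpo, Mmp8, Cxcr2 and Ly6g) were below the lowest array median in all groups. The summed log2 level of the 11 was 48.9 to 51.2 in the control corpus, 47.6 to 56.1 in the cKO corpus, 50.2 to 52.0 in the control cauda and 51.9 to 54.1 in the cKO cauda. In the cKO corpus 0 of 11 differed from the control at an unadjusted p under 0.05, against 8.35% of all probe-sets (limma). In the cKO cauda 1 of 11 was higher than the control at such a p, against 5.66% of all probe-sets in either direction, and 0 were called. S100a8 had means of 6.82 ± 0.215 in the control cauda and 8.90 ± 0.154 in the cKO cauda (SD, n = 3), with no overlap. Between regions, 4 of 11 had a positive and 7 a negative cauda difference in controls, and 3 and 8 did in cKO mice. The 1 marker called was S100a8, a calcium-binding protein of neutrophils, which was higher in the cauda in both genotypes, by 2.29 and 4.52 on the log2 scale (adjusted p = 0.0385 and 0.000925 from limma), and in each genotype 1 marker was lower at an unadjusted p under 0.05.

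**Figure D5:**
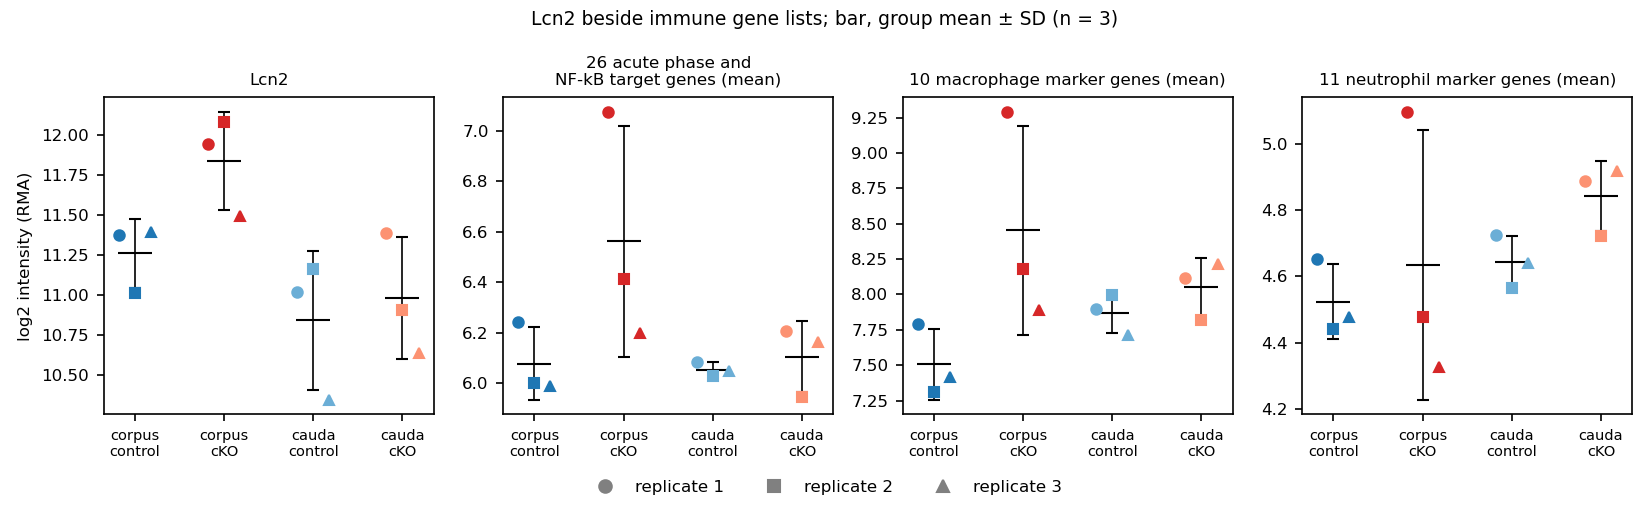
Log2 intensity of Lcn2 and the mean log2 intensity of 26 acute phase and NF-kB target genes, 10 macrophage markers and 11 neutrophil markers on each array, by group, with the mean and SD (n = 3) as bars. The vertical axes differ and do not start at 0. In the cKO corpus Lcn2 lies between 11.49 and 12.08, and the macrophage mean is highest on replicate 1, at 9.29.

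Iron handling, which Lcn2 joins through siderophores, was covered by 19 of 21 genes listed. The iron exporter Slc40a1 was called lower in the cauda, at -2.06 in controls and -2.00 in cKO mice, and so was the importer Slc11a2, at -1.29 and -1.08 (adjusted p = 0.00428, 0.00493, 0.00885 and 0.0247 from limma). These were the 2 genes of 19 called in controls, against 3.52% of all probe-sets. In cKO mice Slc39a14, a metal importer, was also lower at -0.61, and Lrp2, an endocytic receptor that takes up Lcn2, was higher at 1.94 (adjusted p = 0.0166 and 0.026 from limma). There 2.69% of all probe-sets were called. Lrp2 was also higher in the control cauda, with means of 10.49 against 9.15 in the control corpus, without being called. Its values in the cKO corpus were scattered (8.40 ± 0.90, SD, n = 3). Slc22a17, a proposed Lcn2 receptor, had group means between 6.97 and 7.08, and its differences were 0.09 in the cKO corpus and -0.02 between regions in either genotype. For cKO against control in the corpus 0 of 19 passed the adjusted threshold, with 3 at a positive difference and an unadjusted p under 0.05 (limma), against 4.26% of all probe-sets.

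Beyond the 8 members, 20 of 24 further lipocalin family genes listed were measured. Of these, 17 were below the lowest array median in all groups, among them Lcn3, Lcn4, Lcn11, Obp2a and Obp2b, which lie on the same chromosome as the members. Apod, apolipoprotein D, was the only one of the 20 called, against 3.52% of all probe-sets between regions in controls and 2.69% in cKO mice. Its mean log2 intensity was 9.09 ± 0.164 in the corpus of controls and 10.65 ± 0.127 in their cauda (SD, n = 3). The difference was 1.56 (standard error 0.21, adjusted p = 0.00234 from limma). Apod was 1.50 higher in the cauda of cKO mice (adjusted p = 0.00305 from limma). Apod and Lcn12 were thus the lipocalins called higher in the cauda in both genotypes.

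The genes with the most similar profile were ranked by Pearson's r over the 12 arrays, which share region, genotype and tissue pieces. For Lcn8 and Lcn9 they were the same 3 genes, Gm4846, Pate5 and the metalloproteinase-family gene Adam28, with r from 0.987 to 0.998. For Lcn5 they were Muc15, Rnase13 and Epp13 (0.991, 0.984 and 0.977), for Lcn6 Serpinf2, Teddm1b and Defb47 (0.991, 0.947 and 0.937), and for Lcn10 Ly6g5b, Clpsl2 and Cst11 (0.981, 0.975 and 0.975). Lcn12 was closest to the protease inhibitor genes Spinkl and Spink14 and to Hephl1 (0.99, 0.989 and 0.99). Within the 6 cauda arrays alone r was -0.091 for Spinkl, 0.858 for Spink14 and 0.115 for Hephl1. Ptgds was closest to Ch25h, Cbs and Syn2 (0.992, 0.991 and 0.967), with r from 0.971 to 0.995 in the corpus and from 0.0927 to 0.541 in the cauda. Lcn2 was closest to Cttn, Tcf19 and Stat2 (0.956, 0.947 and 0.944), and none of these genes was among the 3 nearest to another lipocalin.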

How the data were processed

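Total RNA from the corpus and cauda was hybridised by the authors to Affymetrix Mouse Gene 2.0 ST arrays, as the methods state (the labels describe the miRNA array), and what they deposited for each probe-set is a log2 intensity after robust multi-array averaging (RMA) in Partek. RMA is named without a version in the submitters' notes. The values were used without further normalization. Of 41345 probe-sets, 23521 carry 1 gene symbol, 1820 several and 16004 none here.

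A gene was shown by its brightest probe-set with 1 symbol. The 4 group means were fitted with limma 3.58.1 (R 4.3.3) over 12 arrays, with 8 residual and 3.18 prior degrees of freedom. The spread of a probe-set was pooled over the 4 groups, so each standard error also draws on groups not compared. Tests were two-sided, with Benjamini-Hochberg adjustment across every probe-set, and called means an adjusted p under 0.05. The procedure was tested on simulated data. Both regions came from the same 6 mice per the methods, but nothing given says which corpus and cauda arrays share a mouse, so the fit treats the 12 arrays as independent. Members and gene lists were chosen with earlier results of these data known. Named genes were the 8 members, the 3 most similar genes of each, and, from each list, up to 4 genes with the smallest p in a comparison described. Slc22a17 and the markers below array medians were named outside this rule, with their values seen. Csf1r and Mrc1 were named for their cKO means, and Spint4, Adam7 and Cst11 for their corpus levels, also with values seen. Array-level means over a list average log2 values. Alternatives covered the variance, the scaling, the probe-sets tested, the arrays fitted, blocks and leaving out each array.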

Additional observations from a re-analysis of the deposited data

How the results depend on the processing

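Of 832 values of 40 results (8 lipocalins in 5 comparisons) under the alternatives, 783 kept direction and side of the threshold, 44 in 17 results changed sign, 5 in 3 results newly passed and 0 lost a call. None of the results that changed sign was called.

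The number of lipocalins called for cauda against corpus in cKO mice was 1, and it was 2 over probe-sets with 1 symbol, 2 over the brighter part and 1 to 2 without single arrays, with Ptgds the addition. In controls it was 1 to 2 without single arrays, the addition being Lcn5 without cauda cKO replicate 3. For cKO against control in the corpus it was 0 to 1, with Ptgds passing without corpus cKO replicate 3. The settings with 1 symbol and with the brighter part refitted the model on fewer probe-sets, so that both the moderated variance and the adjustment could change. The cause of these changes was not tested.

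Without single arrays, cKO minus control in the cauda ranged from -0.0436 to 1.52 for Lcn10, -0.11 to 0.31 for Lcn2, -0.88 to 1.85 for Lcn5, -0.000297 to 0.74 for Lcn6, -0.77 to 1.67 for Lcn8, -1.15 to 1.97 for Lcn9 and -0.0471 to 0.0366 for Ptgds. In the corpus it ranged from -0.84 to 0.16 for Lcn5, -0.58 to 0.19 for Lcn6, -0.80 to 0.29 for Lcn8 and -0.72 to 0.31 for Lcn9. The difference of effects ranged from -2.33 to 0.40 for Lcn5, -1.83 to 0.61 for Lcn8 and -2.10 to 1.01 for Lcn9. Cauda minus corpus in cKO mice ranged from -2.21 to 0.22 for Lcn8 and -2.72 to 0.22 for Lcn9, and leaving out both cauda arrays numbered 3, a setting chosen after seeing the data, gave 0.22 for each. With arrays centred on their medians, cKO minus control in the cauda was 0.0349 for Lcn12 and 0.0382 for Ptgds. The cause was not tested.

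With the replicate block the Lcn12 regional difference stayed at 1.02 in controls and 1.39 in cKO mice (adjusted p = 0.00642 and 0.00166 from limma). The block changed no lipocalin call. Deviations of same-numbered arrays correlated at -0.0963 to 0.208. Between corpus control and corpus cKO, 3 of 3 arrays were closest to the array of their own number. The same held between corpus cKO and cauda cKO and between corpus control and cauda cKO. In the other pairs of groups 1 or 2 of 3 were. What the numbers stand for is not given, so they were not taken to pair the arrays. A random block of genotype and number gave a correlation of 0.0451 and changed no lipocalin call. The next brightest probe-set gave no value, as each lipocalin has 1.

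Over all probe-sets, the 1456 calls between regions in controls became 719 without both cauda arrays numbered 3 and as few as 669 without single arrays, and the 1111 in cKO mice became 551, 497 with only the 6 arrays compared, and as few as 614 without single arrays. For cKO against control in the cauda, 0 became 15 after centring or quantile normalization, 90 with 6 arrays, 28 with 1 symbol, 16 with the random block, 2 in the brighter part and up to 118 without corpus cKO replicate 3. In the corpus 0 became 6 with 1 symbol, 6 in the brighter part and 861 without corpus cKO replicate 3, which also gave 151 for the difference of effects. Depth is not defined for arrays, and values below the array median (Lcn8 and Lcn9 on cauda cKO replicate 3, Lcn10 on cauda control replicate 3) limit the size of the differences that rest on them.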

Other observations

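The spread of Lcn12 over the 6 cauda arrays was an SD of 0.0136 around a mean log2 intensity of 12.75. Of all 41345 probe-sets, 0 had a smaller SD over these arrays, and the median SD was 0.222. Among 237 probe-sets with a cauda mean above 12 the median SD was 0.107. Ptgds, with a cauda mean of 13.29, had an SD of 0.0633, and 38 of these 237 probe-sets had a smaller one. In the corpus the SD was 0.298 for Lcn12 and 0.91 for Ptgds. Whether these probe-sets are close to saturation was not tested.

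Markers of haploid germ cells, 9 of 10 measured, had a mean log2 intensity of 9.35 to 10.20 in the control cauda and of 6.64 to 7.39 in the cKO cauda, and 8 of 9 had a negative difference at an unadjusted p under 0.05, against 5.66% of all probe-sets in either direction, with 0 called at the adjusted threshold (limma). On the same arrays the lipocalins differed between the genotypes by -0.02 to 0.64.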
